A study of Mus musculus with 6 samples.

Results

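The genes of cholesterol synthesis and sterol control were examined in hearts that lack cyclophilin D. The set held 30 listed genes: 18 enzymes that build sterols, 5 genes that control the sterol-sensing transcription factors, and 7 genes of sterol sensing, export and transport. Members were the probe sets whose only annotated symbol was a listed gene. This gave 30 probe sets for 28 genes, out of 35557 probe sets in the table, and Acat2 and Nr1h2, with no such probe set here, were not analysed. The hearts came from mice aged 8 weeks on a C57BL/6 strain background. They comprised 3 hearts of Ppif-/- mice, a global knockout that was moved to C57BL/6 from Sv129 by backcrossing, and 3 hearts of wild-type (WT) C57BL/6 mice. Each heart was read on its own Affymetrix Gene 1.0 ST array, and the labels name no treatment of the mice. The knockout acts in every cell type, so no difference can be assigned to cardiac myocytes. The series was made to look for transcripts that differ before the heart fails, and here the question was whether the known increase of Hsd17b7 goes with the rest of its pathway.

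Cholesterol is built from acetyl-CoA through mevalonate, isoprenoid units, squalene and lanosterol, in a chain of enzymes most of which are under shared control. When sterols in the endoplasmic reticulum run low, Scap carries the SREBP factors to the Golgi for cleavage, and the freed factors raise the transcription of the enzymes; the Insig proteins hold Scap back when sterols are plentiful. LXR receptors respond to oxysterols and raise sterol export. Hsd17b7 encodes a reductase of the late pathway that removes the 3-keto group during demethylation at carbon C-4, and the same protein can also convert estrone to estradiol. Values below are log2 expression from the robust multi-array average (RMA), so a difference of 1 is a doubling, and they are compared between hearts for a given probe set and never between genes.

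The sequences just upstream of 4 members that the results turn on are printed here. They are the 250 bases before the annotated transcription start, 5′ to 3′ on the gene's strand, from RefSeq (GRCm38.p6). Capitals mark matches on either strand to the sterol regulatory element letters TCACNCCAC, the CCAAT box, the E-box CACGTG and the GC box GGGCGG, and none of the marked matches overlapped another.
Hsd17b7 (chr1:169969206-169969455, - strand): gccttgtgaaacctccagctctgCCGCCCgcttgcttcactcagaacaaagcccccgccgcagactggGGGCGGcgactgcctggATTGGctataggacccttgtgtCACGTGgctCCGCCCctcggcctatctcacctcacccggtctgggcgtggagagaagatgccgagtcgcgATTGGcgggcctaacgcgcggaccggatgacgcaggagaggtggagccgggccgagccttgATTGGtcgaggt
Hmgcs1 (chr13:119690101-119690350, + strand): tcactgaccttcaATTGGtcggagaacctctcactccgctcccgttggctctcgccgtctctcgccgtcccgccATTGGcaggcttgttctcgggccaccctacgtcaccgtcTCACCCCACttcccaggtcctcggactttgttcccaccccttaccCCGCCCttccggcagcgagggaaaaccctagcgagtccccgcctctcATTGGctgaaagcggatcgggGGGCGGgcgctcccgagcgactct
Insig1 (chr5:28071162-28071411, + strand): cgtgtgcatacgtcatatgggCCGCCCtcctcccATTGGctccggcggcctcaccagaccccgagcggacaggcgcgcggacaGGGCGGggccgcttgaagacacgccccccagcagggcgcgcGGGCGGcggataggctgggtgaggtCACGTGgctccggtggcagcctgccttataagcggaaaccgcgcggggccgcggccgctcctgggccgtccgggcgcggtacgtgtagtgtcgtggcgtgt
Cyp51 (chr5:4104698-4104947, - strand): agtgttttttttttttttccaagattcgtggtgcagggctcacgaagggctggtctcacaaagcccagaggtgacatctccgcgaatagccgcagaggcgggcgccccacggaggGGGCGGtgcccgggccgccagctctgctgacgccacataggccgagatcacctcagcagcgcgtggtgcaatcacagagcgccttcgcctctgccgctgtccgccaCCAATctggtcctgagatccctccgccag
The Hsd17b7 window held 3 CCAAT boxes, 3 GC boxes and 1 E-box, and no match to TCACNCCAC. Hmgcs1 had the 1 match to TCACNCCAC among the 22 members with a window. The window of Insig1 shared the E-box with Hsd17b7.

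Promoter windows were found for 22 of the 28 measured genes, 31 windows in all because some genes have several starts. The sequences used held none for Fdps, Fdft1, Sqle, Abcg1, Stard4 and Npc1, so these were not searched. A CCAAT box was present in 20 of the 31 windows (64.5%), against 33.8% of all 32851 windows of the same length. GC boxes were found in 23 (74.2%, against 32.7% of all windows) and the E-box in 6 (19.4%, against 6.02%). TCACNCCAC was in 1 (3.23%, against 1.05%). All 14 synthesis enzymes with a window had a CCAAT box in at least 1 of their windows, enzymes that did not pass the test below included. A match is a description of the letters and not evidence of binding. Only these exact letters were searched, so the lack of a match is not evidence that a binding site is absent.

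The targeted gene Ppif matched the labels, at 6.23 ± 0.22 in the knockouts against 11.40 ± 0.11 in the wild types (mean log2 ± SD over 3 hearts each). Array medians lay between 6.03 and 6.11. All 7 measured cardiomyocyte markers were bright in every heart (means of 12.75 to 14.21), and 0 of them passed the test. Markers of liver (4 measured, means of 3.42 to 5.99), of white fat (5 measured, 4.13 to 5.86) and of brown fat (3 measured, 4.01 to 8.36, with Cidea the highest) had 0 called, and their summed levels overlapped between the genotypes. The summed level of the 5 macrophage markers was higher in Ppif-/- hearts (10.63 to 10.81) than in WT hearts (10.49 to 10.52), with Cd68 the 1 marker called (0.56). On the same list, Mrc1 was at 0.27 with every Ppif-/- heart above every WT heart, and it was not called (limma adjusted p = 0.216). Csf1r was at -0.10 with every Ppif-/- heart below every WT heart, and Adgre1 (0.15) and C1qa (0.19) overlapped. The 4 smooth muscle markers summed lower (11.50 to 11.61 against 11.71 to 11.95), with Tagln called. Of 5 fibroblast markers, Pdgfra was called lower (-0.44, adjusted p = 0.0246), while their summed levels overlapped (13.13 to 13.22 against 13.19 to 13.26). The atrial sum was higher (12.03 to 12.24 against 11.32 to 11.76), with 0 of 4 markers called, and its level was set by Nppa (0.68, adjusted p = 0.0681). The part of these cell types in the values below was not tested.

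Hsd17b7 rose in Ppif-/- hearts, and 0 of the other 29 member probe sets passed the test in limma. Its probe set (10359917) read 8.74, 8.84 and 8.66 in the 3 Ppif-/- hearts and 6.53, 6.67 and 6.62 in the 3 WT hearts. Every Ppif-/- heart lay far above every WT heart, and the hearts of each genotype lay close together. The difference was 2.14 ± 0.08 (SE), with a 95% interval of 1.96 to 2.32, or 4.40-fold higher (limma adjusted p = 2.34e-05). Hsd17b7 was the 1 member called of the 30 probe sets, beside 1.09% of all 23410 probe sets tested (0.624% called higher) at an adjusted p of 0.05. The tested probe sets were those annotated with a gene. The increase of Hsd17b7 was known when the members were chosen, so that count, its interval and its adjusted p carry no weight of their own. Over the 30 probe sets, all Ppif-/- hearts were above all WT hearts for 3 and below them for 6, and the groups overlapped for 21, beside 19.8% of all probe sets tested without overlap. In whole hearts, more RNA per cell and more cells of an expressing type cannot be told apart.

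**Figure D1:**
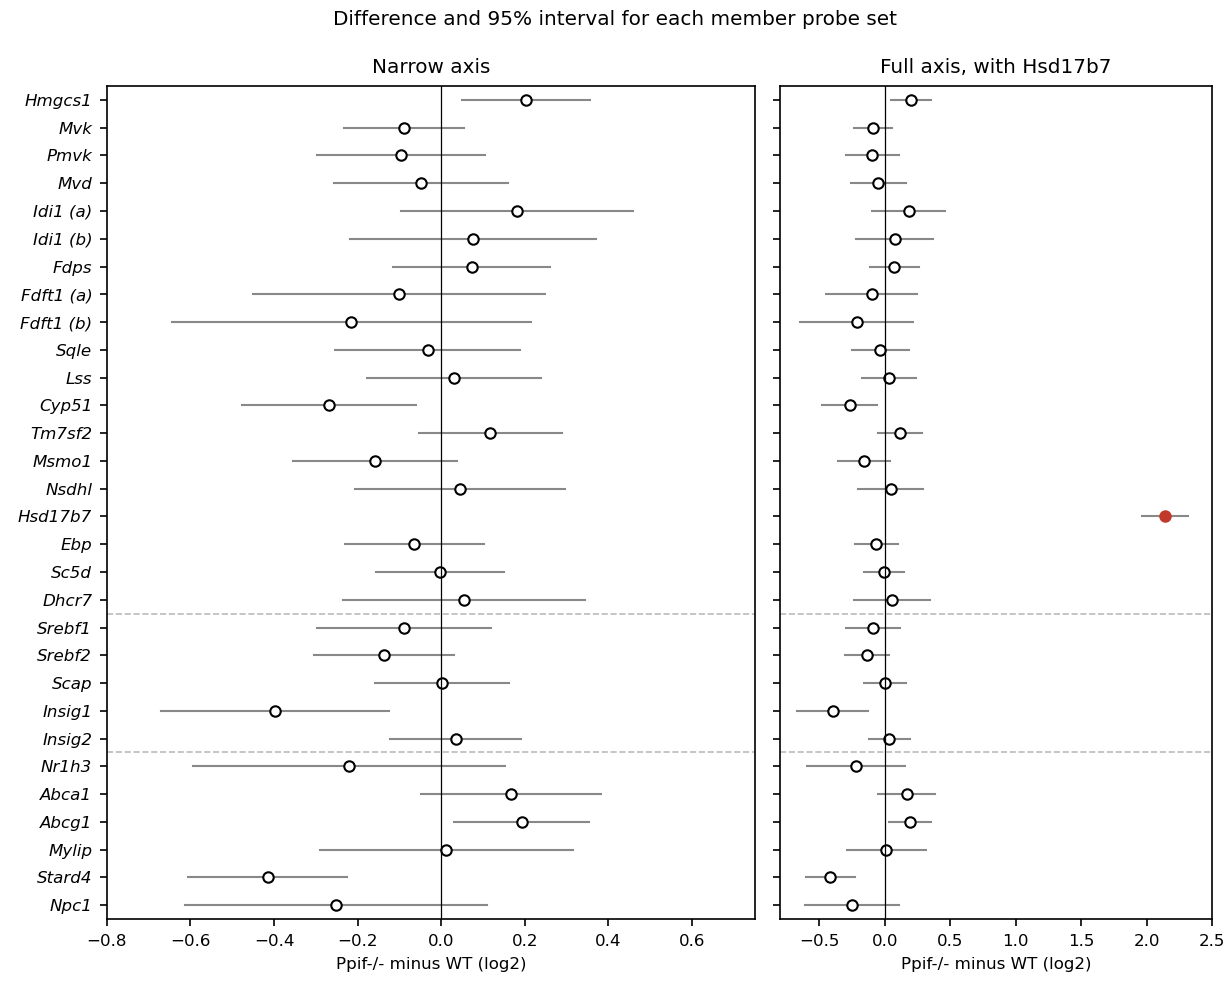
The difference between Ppif-/- and WT hearts (log2, circles) with its 95% interval (lines) is drawn for each of the 30 member probe sets, on a narrow axis at left and a full axis at right. Dashed lines separate enzymes, SREBP control and LXR and transport genes, (a) and (b) are probe sets of 1 gene, and filled red marks an adjusted p under 0.05: Hsd17b7 at 2.14 stands alone, and the others lie between -0.41 and 0.20.

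The other synthesis enzymes gave 18 probe sets for 16 genes, and 0 were called by limma in either direction. At an unadjusted p under 0.05 there was 1 higher and 1 lower, beside 12.9% of all probe sets tested. Their differences ran from -0.27 to 0.20, with 8 above 0 and 10 below. The median was -0.02, beside -0.0023 over all probe sets tested. The highest upper limit of any of their 95% intervals was 0.46, for Idi1. Heart by heart, the median deviation of the 16 other enzymes from their WT means was -0.05, 0.04 and -0.02 in the Ppif-/- hearts, while Hsd17b7 deviated by 2.13, 2.23 and 2.05 in the same hearts. In each Ppif-/- heart the other enzymes thus lay, at the median, within 0.05 of WT, a measure in which rises and falls cancel. Single enzymes ranged from -0.24 to 0.32, -0.22 to 0.29 and -0.38 to 0.20 in Ppif-/- hearts 1 to 3. Of the 16, 3, 9 and 7 lay above their WT means in those hearts.

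In the mevalonate part of the pathway, Hmgcs1, the synthase that makes HMG-CoA, had the highest difference among the other members. It read 8.95, 8.96 and 8.91 in Ppif-/- hearts and 8.79, 8.67 and 8.76 in WT hearts. The groups did not overlap. Its difference of 0.20 ± 0.07 (1.15-fold) did not pass (adjusted p = 0.245). Mevalonate kinase, Mvk, differed by -0.09, with a 95% interval of -0.23 to 0.05, and its hearts did not overlap. Pmvk and Mvd, which phosphorylate and decarboxylate the mevalonate product, differed by -0.10 and -0.05 with overlapping hearts.

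The isoprenoid and squalene steps gave small or heart-dependent values. Idi1, the isomerase of the isoprenoid unit, had 2 probe sets at 0.18 ± 0.12 and 0.08 ± 0.13, and Fdps, which joins the units into farnesyl diphosphate, differed by 0.07 ± 0.08. Fdft1, squalene synthase, also had 2 probe sets, and both were set apart by a single heart. The brighter one read 9.56, 9.60 and 9.53 in Ppif-/- hearts and 9.52, 10.05 and 9.43 in WT hearts. WT heart 2 was the high one, and without it the difference turned from -0.10 to 0.09 for this probe set and from -0.21 to 0.03 for the other. Which transcripts the paired probe sets read was not resolved. Sqle, the squalene epoxidase, differed by -0.03 ± 0.10, and Lss, which closes the ring to lanosterol, by 0.03 ± 0.09.

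Among the enzymes that turn lanosterol into cholesterol, Hsd17b7 acts with Msmo1 and Nsdhl in removing the C-4 methyl groups, and neither of those passed the test. Msmo1, the C-4 methyl oxidase, read 8.72, 8.73 and 8.56 in Ppif-/- hearts and 8.95, 8.77 and 8.77 in WT hearts. Each Ppif-/- heart was below each WT heart, and the difference of -0.16 ± 0.08 did not pass (adjusted p = 0.482). Nsdhl, the decarboxylating dehydrogenase that acts between Msmo1 and Hsd17b7, read 7.22, 7.37 and 7.23 in Ppif-/- and 7.43, 7.03 and 7.22 in WT hearts. Its hearts overlapped, and the difference was 0.05 ± 0.11. The 95% intervals ran up to 0.30 for Nsdhl and 0.04 for Msmo1.

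Cyp51, the lanosterol demethylase that opens this stretch, had the lowest difference among the enzymes. Values were 6.81, 6.86 and 6.67 in Ppif-/- hearts and 7.03, 6.93 and 7.18 in WT hearts. All Ppif-/- hearts lay below all WT hearts, by a narrow gap, and the difference of -0.27 ± 0.09 (1.20-fold lower) did not pass (adjusted p = 0.256). The reductase Tm7sf2 (0.12 ± 0.07), the isomerase Ebp (-0.06 ± 0.07) and the desaturase Sc5d (-0.0031 ± 0.07) had overlapping hearts. Dhcr7, the reductase of the last steps, differed by 0.05 ± 0.12, and here WT heart 2 was low, at 7.70, while the other 5 hearts lay between 7.91 and 8.12.

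**Figure D2:**
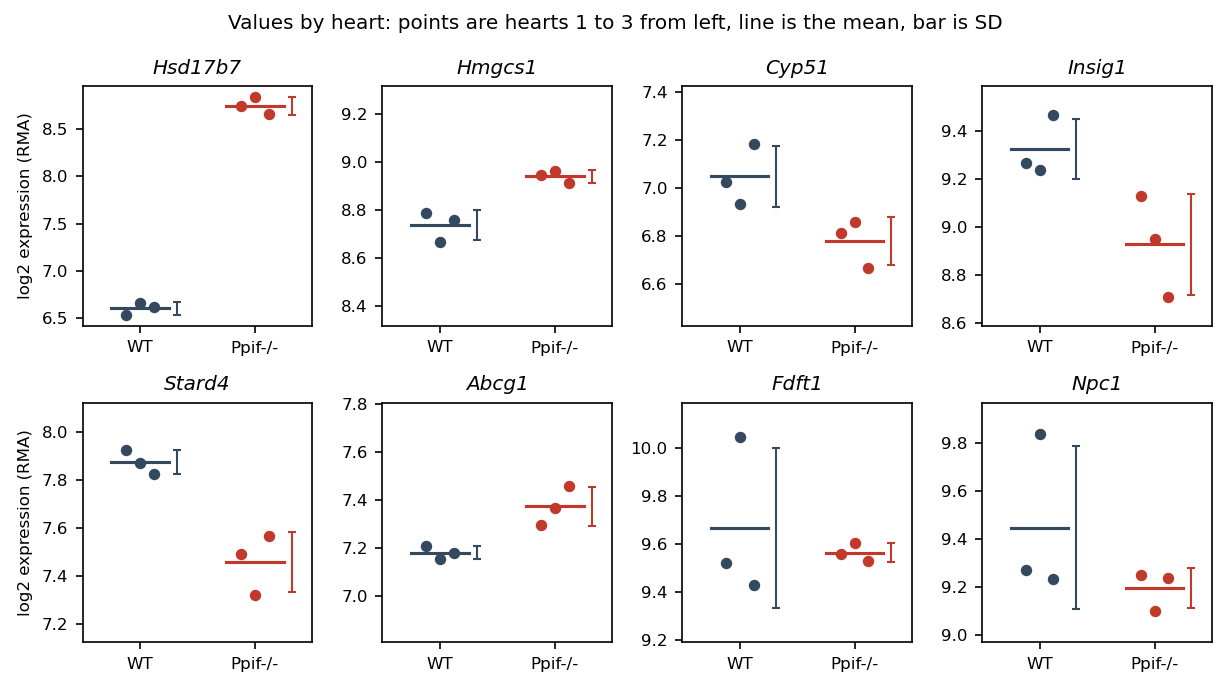
Log2 expression (RMA) of 8 members is shown for each heart, with WT in dark blue and Ppif-/- in red, hearts 1 to 3 from left to right, the group mean as a line and the SD as a bar. Each panel has its own range of values; Hsd17b7 separates the groups by 2.14, Stard4 and Insig1 lie lower in every Ppif-/- heart, and WT heart 2 is the high point for Fdft1 and Npc1.

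None of the 5 genes of SREBP control was called by limma, and 1 was lower at an unadjusted p under 0.05, with a median difference of -0.09. The lower one was Insig1, which retains Scap in the endoplasmic reticulum and is itself a target of the SREBP factors. It read 9.13, 8.95 and 8.71 in Ppif-/- hearts and 9.27, 9.24 and 9.47 in WT hearts. Every Ppif-/- heart was below every WT heart, with a wide spread among the Ppif-/- hearts. The difference was -0.40 ± 0.12 (1.32-fold lower, 95% interval -0.67 to -0.12), and it did not pass (adjusted p = 0.204). Srebf2, the factor that drives most synthesis enzymes, differed by -0.14 ± 0.07 with hearts that did not overlap (adjusted p = 0.482). Srebf1 (-0.09 ± 0.09), the escort Scap (0.0016 ± 0.07) and Insig2 (0.03 ± 0.07) had overlapping hearts.

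Stard4, a cytosolic carrier of sterols and a known SREBP target, came nearest to the threshold after Hsd17b7, in the other direction. It read 7.49, 7.32 and 7.56 in Ppif-/- hearts and 7.92, 7.87 and 7.82 in WT hearts. The groups were separated, with the lowest WT heart above the highest Ppif-/- heart. Its difference was -0.41 ± 0.08 (1.33-fold lower, 95% interval -0.60 to -0.22), with an adjusted p of 0.0702 in limma. It passed under 4 of 16 alternative settings (adjusted p = 0.0358 to 0.0453) and in the others stayed above the threshold, up to 0.209 without WT heart 1. Npc1, which exports cholesterol from lysosomes, read 9.25, 9.10 and 9.24 in Ppif-/- and 9.27, 9.84 and 9.24 in WT hearts. WT heart 2 was again the high one, and the difference of -0.25 ± 0.16 was -0.06 without it.

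The sterol-sensing and export genes divided in sign, and 0 of the 6 measured in the LXR and transport group were called by limma, with 1 higher (Abcg1) and 1 lower (Stard4) at an unadjusted p under 0.05. The median difference of that group was -0.10. Abcg1, a transporter that passes cholesterol to lipoproteins, read 7.30, 7.37 and 7.46 in Ppif-/- hearts and 7.21, 7.16 and 7.18 in WT hearts. The hearts did not overlap, and the difference of 0.19 ± 0.07 (1.14-fold) did not pass (adjusted p = 0.297). Abca1, the transporter that loads apolipoprotein A-I, differed by 0.17 ± 0.09 with overlapping hearts. The LXR alpha gene Nr1h3 stood at -0.22 ± 0.16 and Mylip, a ubiquitin ligase for lipoprotein receptors and an LXR target, at 0.01 ± 0.13. For both, WT heart 2 had the highest WT value, 8.50 and 8.80. Without that heart Nr1h3 was at -0.06, and without Ppif-/- heart 1 at -0.09. Macrophages express several of these transport genes, and the macrophage marker sum given above was higher in Ppif-/- hearts, though not for every marker; its part was not tested.

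WT heart 2 recurred across the members. It deviated by more than 0.3 from its group mean for 3 of the 27 leading probe sets other than Hsd17b7, and the remaining hearts did so for 0. Over all probe sets, its mean correlation with the other WT arrays was 0.9909, beside 0.9909 to 0.9923 for the other arrays with their own groups. Level differences between genes keep such values high, and the lowest of any pair of arrays was 0.987. They therefore cannot show whether this array as a whole stands apart. Leaving it out kept Hsd17b7 at 2.17 (adjusted p = 0.000278).

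Related genes of sterol handling were then counted. Of 8 measured genes of SREBP processing and sterol-regulated degradation, 0 were called by limma and 0 of their 9 probe sets had an unadjusted p under 0.05. By their leading probe sets the smallest p-values belonged to Spring1 (-0.11) and Mbtps1 (0.12). Tmem97 was at 0.05 by its brighter probe set and 0.34 by its dimmer one, the latter moving between 0.19 without WT heart 3 and 0.59 without WT heart 2. Of 10 oxysterol enzymes and LXR targets, 0 were called and 1 was higher at an unadjusted p under 0.05, the transporter Abca5 (0.35 ± 0.09), followed by the phospholipid transfer protein Pltp (0.14). In uptake, lysosomal release and ester storage, 0 of 16 were called by limma. At an unadjusted p under 0.05 there were 7 of the 16, 3 higher and 4 lower, beside 12.9% of all probe sets tested. The outer mitochondrial membrane protein Tspo (0.25 ± 0.08) and the lipoprotein receptor Vldlr (-0.22 ± 0.07) led that list. Of 15 other sterol and isoprenoid enzymes, 0 were called by limma and 1 was lower at an unadjusted p under 0.05, the reductase Cyb5r3 (-0.17 ± 0.06), with Lbr next (0.15).

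The genes of fatty acid synthesis and SREBP-1 held the 1 call in the related lists. Of 18 genes (21 probe sets), 1 was called, Lpin1, a phosphatidate phosphatase of triglyceride synthesis, beside 0.461% of all probe sets called lower. At an unadjusted p under 0.05 there were 5 of the 21 probe sets, all lower, beside 12.9% of all probe sets tested in either direction. Over all 23410 probe sets tested, 1594 were lower at that p. Lpin1 read 10.75, 10.72 and 10.71 in Ppif-/- hearts and 11.25, 11.09 and 11.13 in WT hearts. The groups did not overlap, and Lpin1 fell by 0.43 ± 0.07 (1.35-fold lower, adjusted p = 0.0353). Leaving out any single heart ended this call (adjusted p = 0.0602 to 0.129). The other 4, named after their values were seen, were both probe sets of the malic enzyme Me1, which supplies NADPH for lipid synthesis, the acyltransferase Gpam and the carboxylase Acacb. They differed by -0.22 and -0.23 for Me1, -0.29 for Gpam and -0.23 for Acacb, with hearts that did not overlap. None passed (limma adjusted p = 0.225, 0.191, 0.262 and 0.259). For Gpam and Acacb, WT heart 2 had the highest WT value, 11.80 and 11.19.

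**Figure D3:**
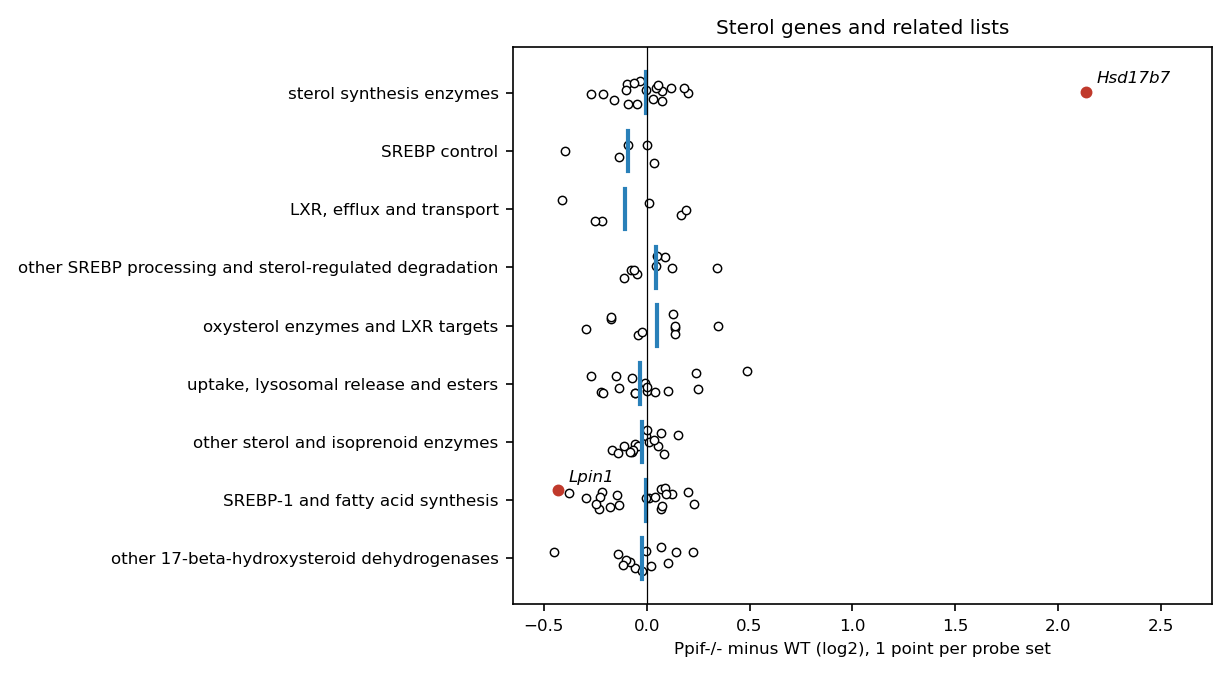
Each point is a probe set, placed by its difference between Ppif-/- and WT hearts (log2), in the 3 groups of members and in 6 lists of related genes; blue bars are list medians and filled red marks an adjusted p under 0.05. Hsd17b7 at 2.14 and Lpin1 at -0.43 are the filled points, and the list medians lie between -0.10 and 0.05.

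Relatives of Hsd17b7 were compared as well. Of 13 other 17-beta-hydroxysteroid dehydrogenases and related proteins, 0 were called by limma and 1 was lower at an unadjusted p under 0.05. This was Hsd17b11, an enzyme of lipid droplets, at 8.54, 8.45 and 8.39 in Ppif-/- hearts and 8.73, 9.18 and 8.84 in WT hearts. Its hearts did not overlap, and the difference of -0.45 ± 0.12 did not pass (adjusted p = 0.153). Hsd17b4, the multifunctional enzyme of peroxisomal fatty acid oxidation, differed by -0.14 ± 0.06, and the highest difference in the family was 0.23.

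Position on the chromosome was the last feature compared, since the Ppif-/- line came from Sv129 mice. In the order of genes on chromosome 1, the 10 measured genes on each side of Hsd17b7 held 1 call, beside 1.09% of all probe sets tested. It was in the other direction. At an unadjusted p under 0.05 there were 4 of the 20, 2 higher and 2 lower, beside 12.9% of all probe sets tested. All Ppif-/- hearts were above all WT hearts for 4 and below them for 3, beside 19.8% of all probe sets tested without overlap. Olfml2b, an extracellular matrix protein gene 8 measured genes away, read 7.84, 7.52 and 7.44 in Ppif-/- hearts and 8.80, 8.77 and 8.64 in WT hearts. The groups were well separated, and Olfml2b fell by 1.14 ± 0.11 (2.20-fold lower, adjusted p = 0.00338). The nearest measured genes, Ccdc190 and Ddr2, differed by 0.08 and -0.13, and neither passed (adjusted p = 0.813 and 0.521). Nos1ap, beside Olfml2b, differed by 0.41 ± 0.08 (adjusted p = 0.0649), and Rgs5, on the other side of Hsd17b7, by 0.27 ± 0.07 (adjusted p = 0.129). In both, every Ppif-/- heart lay above every WT heart. The highest difference among the 20 was 0.89 ± 0.46, for Nuf2 (limma adjusted p = 0.47). Nuf2 read 7.25, 5.37 and 5.31 in Ppif-/- hearts and 5.03, 4.96 and 5.26 in WT hearts. Its groups did not overlap, and Ppif-/- heart 1 lay far above the others. Ccdc190, Ddr2, Nos1ap, Rgs5 and Nuf2 were named after their values were seen. Alleles linked to Hsd17b7 that differ between the line and C57BL/6 cannot be told apart from the loss of Ppif in this design.

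**Figure D4:**
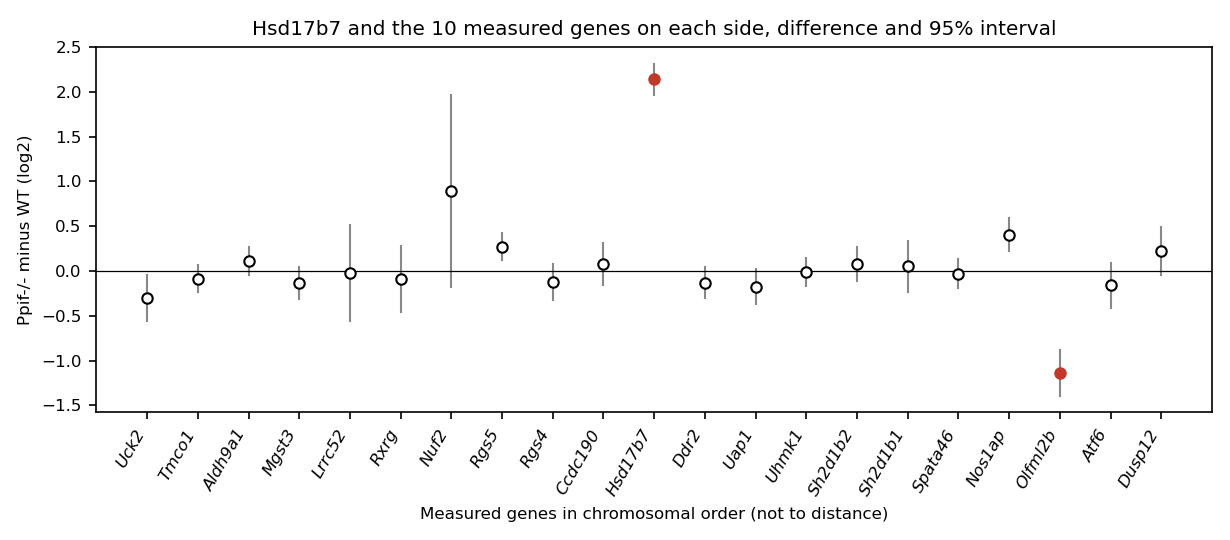
Difference between Ppif-/- and WT hearts (log2) with its 95% interval for Hsd17b7 and the 10 measured genes on each side, in chromosomal order and not to distance; filled red marks an adjusted p under 0.05. Hsd17b7 (2.14) and Olfml2b (-1.14) are filled, and the genes directly beside Hsd17b7 lie near 0.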

How the data were processed

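Total RNA of 6 hearts, 3 Ppif-/- and 3 WT, was hybridised to 1 array each. The deposited log2 values were made with RMA, per the submitters' processing notes; the sources used here give neither its software nor its filters, and RMA compresses folds of dim transcripts. Replicates are numbered hearts, and nothing says whether mice were littermates. The p-values set the difference between genotypes against the spread between hearts within them, moderated over all probe sets tested. Litters that differ with genotype cannot be told apart from it. The platform annotation pairs 21789 of the 35557 probe sets with a single symbol and 1621 with several; the other 12147 are unnamed here. The 23410 named ones were fitted with limma 3.58.1 in R 4.3.3 (lmFit, eBayes, 2-sided, no covariates), with Benjamini-Hochberg adjustment over all of them and a threshold of 0.05. An exact test of 3 against 3 hearts cannot go below 0.1. The fit was tested on simulated data. Members and lists were chosen with earlier results of these data known. Named were all members, in each related list the genes past the threshold or else the 2 with the smallest p, and neighbours of Hsd17b7 past it; other genes, markers included, were named after their values were seen. A gene's brightest probe set led. Same-numbered hearts did not deviate together, and the alternatives are given in the closing section. Gene names and gene order came from a RefSeq table of GRCm38.p6; the array's build is not stated.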

Additional observations from a re-analysis of the deposited data

How the results depend on the processing

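Hsd17b7 stayed called under all 16 alternatives, at 2.09 to 2.19 (adjusted p = 3.5e-06 to 0.000664). The median over the members stayed within -0.05 to 0.0070, less than the spread between hearts away from its main value. The count of called members was 2 on the brighter probe sets, with arrays centred on their medians, with a variance trend or under array weights, the second being Stard4 each time, and 1 in the other settings and without any 1 heart. The neighbours of Hsd17b7 held 2 calls on the brighter probe sets, with array weights (Nos1ap joining Olfml2b in both) and with a variance trend (Rgs5 joining). Over all probe sets with a symbol the count of 254 became 403 on the brighter ones, 453 with a variance trend, 386 with array weights, 131 with every probe set of the table tested, 160 with the replicate number as a block, and 131 to 171 without 1 heart. In that block fit the members called numbered 1, Hsd17b7 had an adjusted p of 0.000451, and Lpin1 lost its call (0.0952), as it did with all probe sets tested (0.0992). Same-numbered hearts had deviations that correlated at -0.08, -0.06 and 0.12, so the numbers were not taken to pair them.

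Signs turned for 11 member probe sets, none of them called: Sc5d to 0.0075 with quantile normalisation, Scap to -0.017 and Mylip to -0.0063 with centred arrays, and Fdft1 to 0.012 and Dhcr7 to -0.0023 with array weights. Leaving out 1 heart gave -0.112 to 0.0106 for Mvd, -0.108 to 0.033 for Sqle, -0.0319 to 0.0297 for Sc5d, -0.0757 to 0.142 for Mylip, -0.0406 to 0.0971 for Lss and -0.0546 to 0.148 for Nsdhl. It gave -0.0277 to 0.0372 for Scap, -0.086 to 0.128 for Dhcr7, -0.0007 to 0.219 for the dimmer Idi1 probe set, and -0.219 to 0.0893 and -0.338 to 0.0276 for the Fdft1 probe sets. The cause was not tested. The number of arrays limits every interval, and 29 of the 30 member probe sets passed the filter on low values.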
